A study of Homo sapiens with 12 samples.

Results

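The basal and simple epithelial keratins are described here through 9 genes, KRT5, KRT14, KRT15, KRT17, KRT7, KRT8, KRT18, KRT19 and KRT81. They were taken by name and were required to lie on an assembled chromosome. No measured value entered this rule, but the members were chosen with earlier results of these data known. The table of 46931 genes lists 55 keratin genes on such chromosomes, and all 9 of these genes passed the filter on low counts. RNA was measured by stranded, polyadenylated RNA sequencing in 12 libraries of MCF10A, an immortalised human mammary epithelial cell line with a wild-type genotype. In the 3 libraries called siYT_XMU, cells had siRNA sets against YAP and TAZ (11 nM), and XMU-MP1, an inhibitor of the kinases MST1 and MST2, was added 48 h after transfection at 5 µM for 6 h. The 3 siYT_DMSO libraries had the same siRNA and the solvent DMSO for 6 h. The 3 siC_XMU libraries had control siRNA (22 nM) and 5 µM XMU-MP1, and the 3 siC_DMSO libraries had control siRNA and DMSO. YAP and TAZ are the transcriptional coactivators that the Hippo kinases restrain, and the title of the series concerns a Hippo branch that represses deltaNp63, a form of the basal-cell factor p63. All groups share the cell line, the transfection and a serum-containing medium with insulin, hydrocortisone and epidermal growth factor, so each comparison concerns siRNA or drug in 1 cell line.

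Keratins form the intermediate filaments of epithelial cells, and each filament is built from pairs of a type I and a type II chain. In stratified epithelia and in the basal layer of the mammary gland the main pair is KRT5 (type II) with KRT14 (type I), with KRT15 and KRT17 as further type I chains, whereas simple and luminal epithelia use KRT7 and KRT8 (type II) with KRT18 and KRT19 (type I). KRT81 is a type II keratin best known from the hair shaft. Pathologists use the basal and the simple keratins to tell cell compartments of the breast apart.

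Depth ranged from 8243351 counts in library c of siYT_XMU to 67953633 in library b of siC_DMSO. Library c of siYT_XMU stood apart from the other 11, with 35.0% of its counts from ribosomal RNA genes (1.02 to 8.35% elsewhere) and counts for 15135 genes (17950 to 20704 elsewhere). Levels below are CPM, counts scaled to the TMM-adjusted size of each library, given for libraries a, b and c in that order. The targeted gene YAP1 averaged 5.28 ± 1.42 CPM in siYT_XMU and 9.86 ± 2.49 in siYT_DMSO, against 136 ± 4.97 in siC_XMU and 206 ± 15.4 in siC_DMSO (SD, n = 3 each). The other targeted gene, WWTR1, which encodes TAZ, averaged 1.12 ± 1.06 and 4.14 ± 0.427 CPM in siYT_XMU and siYT_DMSO, against 57.7 ± 2.31 and 32.3 ± 7.37 in siC_XMU and siC_DMSO. All 9 genes of a list of epithelial markers that holds no keratin, among them CDH1 and EPCAM, had a mean of at least 1 CPM in every group. Markers of fibroblasts, leukocytes and endothelium summed to at most 141, 199.7 and 9.32 CPM in any library, all in siYT_XMU. Within siYT_XMU, LYZ ranged from 0.0 to 58.6 CPM, COL1A2 from 0.0 to 33.4 and PTPRC from 0.0 to 5.59. Their means in the other groups were at most 0.0535 CPM, and the source of these reads was not tested. A list of 13 luminal mammary markers without keratins summed to 1297 to 1477 CPM in siYT_XMU and 1207 to 1816 in siYT_DMSO, against 244 to 409 in siC_XMU and 299 to 567 in siC_DMSO. In the order siYT_XMU, siYT_DMSO, siC_XMU and siC_DMSO, 7, 7, 6 and 7 of the 13 had a mean of at least 1 CPM. CD24 and ERBB3 made up most of the sum in the knockdown, and PGR, KIT and PROM1 were at 0 in all libraries. Other members went the other way. XBP1 averaged 25.6 and 72.8 CPM in siYT_XMU and siYT_DMSO, against 131 and 134 in siC_XMU and siC_DMSO. FOXA1 averaged 5.41 and 3.44 CPM, against 9.72 and 11.4, in the same groups. Of 10 luminal markers tested, edgeR called 5 higher and 3 lower after the knockdown in XMU-MP1. In DMSO it called 3 higher and 1 lower. A list of 12 basal or myoepithelial markers without keratins summed to 906 to 2043 and 813 to 1736 CPM in siYT_XMU and siYT_DMSO, against 1135 to 1338 and 1730.3 to 2177 in siC_XMU and siC_DMSO, with 9, 10, 10 and 11 of the 12 at a mean of at least 1 CPM in the same order and CNN1 at 0 throughout. Of 11 basal or myoepithelial markers tested, edgeR called 1 higher (9.09%) and 0 lower after the knockdown in XMU-MP1. In DMSO 0 were called higher and 1 lower (9.09%), and each of these shares was below that of all genes tested. The part of such markers in the keratin results was not tested, and in bulk RNA fewer cells of a type and less RNA per cell cannot be told apart.

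The 9 genes lie in the type II keratin cluster of chromosome 12 and the type I cluster of chromosome 17 (GRCh38.p13, RefSeq positions of the deposited table). On chromosome 12, KRT5 (gene ID 3852) spans 52514575 to 52520394 on the minus strand. KRT7 (3855) spans 52233243 to 52252667 on the plus strand, and KRT81 (3887) spans 52285913 to 52291534 on the minus strand inside the span of KRT86 on the plus strand. KRT18 (3875) is a type I gene that lies in the chromosome 12 cluster, at 52948871 to 52952906 on the plus strand, and its span overlaps by 990 bases that of KRT8 (3856) at 52897191 to 52949860 on the minus strand. On chromosome 17, all on the minus strand, KRT15 (3866) spans 41513745 to 41518890, KRT19 (3880) 41523617 to 41528308, KRT14 (3861) 41582279 to 41586895 and KRT17 (3872) 41619442 to 41624575. Of the 9 genes, 2 had an entry in the RefSeq promoter table (GRCh38.p14). KRT5 and KRT8 are a basal and a simple type II keratin on the same chromosome, and both had fewer transcripts after the knockdown (below), so the 250 bases before the listed start of each are shown 5′ to 3′ on the gene's strand. The KRT5 window is chr12:52520395-52520644 and ends at the base before the gene's span. The KRT8 window is chr12:52926470-52926719, which lies before 1 of several starts inside the gene's span.
KRT5: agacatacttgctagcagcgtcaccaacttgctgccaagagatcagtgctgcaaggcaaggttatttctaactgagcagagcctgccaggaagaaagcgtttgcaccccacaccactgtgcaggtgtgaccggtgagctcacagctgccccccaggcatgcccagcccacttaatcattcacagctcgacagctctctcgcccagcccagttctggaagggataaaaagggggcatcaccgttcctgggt
KRT8: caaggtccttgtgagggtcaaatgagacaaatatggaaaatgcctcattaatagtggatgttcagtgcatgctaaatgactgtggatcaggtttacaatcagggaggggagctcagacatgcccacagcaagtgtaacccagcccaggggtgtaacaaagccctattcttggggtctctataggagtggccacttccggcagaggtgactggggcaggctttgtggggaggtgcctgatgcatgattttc
On both strands, neither window holds TATAAA, the SP1 core GGGCGG, the TEAD core GGAATG or the AP-1 core TGANTCA, which is why no base is in capitals. Among 35116 promoter windows of the same length, 10.7% hold TATAAA, 42.6% GGGCGG, 11.9% GGAATG and 6.57% TGANTCA.

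The siRNA against YAP and TAZ raised some of these keratins and lowered others, and the split among those that passed the test did not run between basal and simple genes. Of the basal keratins KRT5 fell and KRT17 rose, and of the simple keratins KRT8 and KRT18 fell and KRT19 rose, both in DMSO and in XMU-MP1. KRT15 and KRT7 rose in XMU-MP1 but did not pass the test in DMSO, and KRT14 and KRT81 passed it in neither. With the library letter added to the model as a block, KRT15 and KRT81 also passed it in DMSO (values below). In DMSO 5 of the 9 were called at an adjusted p under 0.05 in edgeR's quasi-likelihood test, in a comparison that called 32.1% of all 18143 genes tested. Of these, 2 were higher and 3 lower, against 16.1% higher and 16.0% lower of all genes tested. The siYT_DMSO and siC_DMSO libraries did not overlap for 6 of the 9, against 54.1% of all genes tested. In XMU-MP1 7 of the 9 were called, against 36.4% of all genes tested. Of these, 4 were higher and 3 lower, against 17.7% higher and 18.6% lower of all genes tested. For 7 of the 9 the siYT_XMU and siC_XMU libraries did not overlap, as for 45.6% of all genes tested. The median log2 fold change over the 9 was -0.84 in DMSO and 0.19 in XMU-MP1, beside 0.02 and 0.04 over all genes tested. The labels do not say whether the letters are separate cultures, and p-values here reflect the scatter of these samples, which may be technical.

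**Figure D1:**
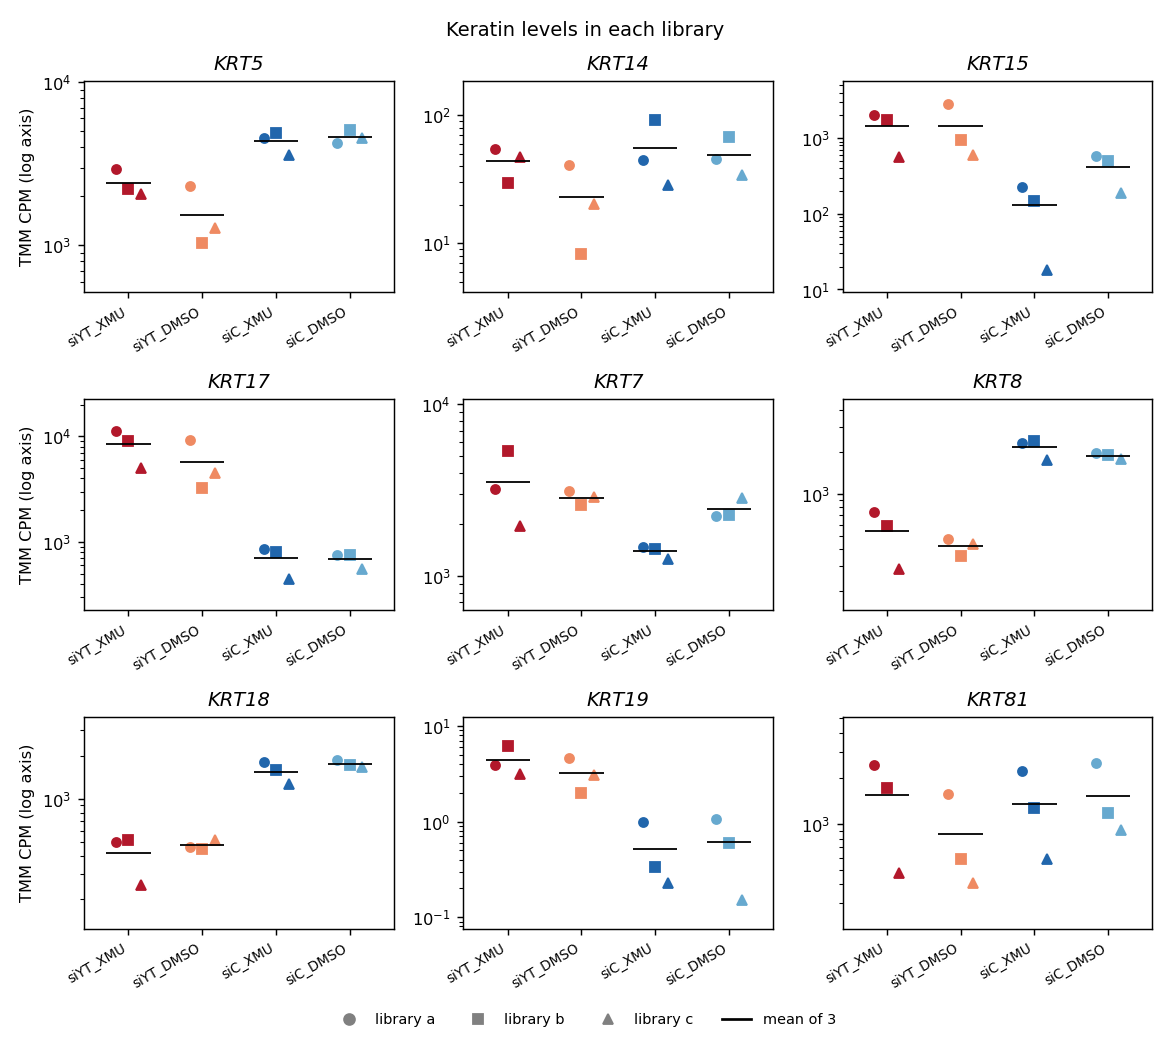
Level of each of the 9 keratins in each of the 12 libraries, as TMM CPM on a log axis whose range differs between panels. Symbols mark libraries a, b and c and the bar is the mean of 3. KRT17 and KRT19 are higher in all 6 libraries with YAP and TAZ siRNA than in the 6 with control siRNA, and KRT5, KRT8 and KRT18 are lower in all 6.

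Among the basal keratins, KRT5, the type II chain of the basal pair, had 2955, 2224 and 2073 CPM in siYT_XMU and 2297, 1029.6 and 1282 in siYT_DMSO. It had 4522, 4910.4 and 3581 CPM in siC_XMU and 4236, 5086 and 4539 in siC_DMSO. Every knockdown library was below every control siRNA library. The log2 fold change was -1.59 ± 0.29 in DMSO (SE, adjusted p = 0.00138), which is 3.01-fold lower, and -0.84 ± 0.29 in XMU-MP1 (adjusted p = 0.0377), which is 1.79-fold lower. The call in XMU-MP1 was lost when library c of siYT_XMU was left out (-0.75, adjusted p = 0.0803), as it was without any of 6 other single libraries (adjusted p 0.0516 to 0.114) and with RLE size factors (adjusted p = 0.0604). The difference between the 2 drug effects (after the knockdown minus with control siRNA), termed the interaction, was 0.75 ± 0.40 for KRT5 (adjusted p = 0.363).

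KRT14, the type I partner of KRT5, was present at a small fraction of its level, with 54.3, 29.7 and 47.2 CPM in siYT_XMU and 40.7, 8.24 and 20.3 in siYT_DMSO. It had 44.7, 92.8 and 28.4 CPM in siC_XMU and 45.4, 67.8 and 34.1 in siC_DMSO. All 4 groups overlapped, and library b was the lowest of its group in the knockdown and the highest with control siRNA. The log2 fold change of the knockdown was -1.09 ± 0.54 in DMSO (adjusted p = 0.151) and -0.34 ± 0.54 in XMU-MP1 (adjusted p = 0.658). Without library a of siYT_DMSO the value in DMSO was -1.79 (adjusted p = 0.0352). Of the 100-base stretches of the KRT14 transcript 6.0% also occur in another gene, mainly KRT16, and how the authors treated shared reads is not given in the sources used here.

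KRT15, a type I keratin of basal cells and of hair follicle stem cells, had 2013, 1724 and 566 CPM in siYT_XMU and 2842, 958 and 607 in siYT_DMSO. It had 225, 146 and 18.3 CPM in siC_XMU and 578, 498 and 188 in siC_DMSO. The lowest knockdown library lay above the highest control library of the same drug arm, narrowly so in DMSO. KRT15 rose in XMU-MP1 by a log2 fold change of 3.47 ± 0.88 (11.0-fold, adjusted p = 0.00933), and in DMSO the value was 1.80 ± 0.83 (adjusted p = 0.12). The value in XMU-MP1 was 4.11 without library a of siC_XMU (adjusted p = 0.0141), and that in DMSO was 0.89 without library a of siYT_DMSO (adjusted p = 0.485). In all 4 groups library a was the highest and library c the lowest.

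KRT17, a type I keratin of skin appendages that is induced by injury, rose in both drug arms. It had 11258, 9039 and 5054 CPM in siYT_XMU and 9291, 3248 and 4503 in siYT_DMSO. It had 851, 806 and 450.0 CPM in siC_XMU and 760.0, 759.5 and 549.9 in siC_DMSO. The knockdown and control ranges lay far apart, although the knockdown libraries differed among themselves. KRT17 rose in XMU-MP1 (log2 3.59 ± 0.45, adjusted p = 0.000108) and in DMSO (log2 3.04 ± 0.44, 8.24-fold, adjusted p = 0.000274).

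Among the simple keratins, KRT7, a type II chain of glandular and ductal epithelia, had 3197, 5371 and 1962 CPM in siYT_XMU and 3123, 2581 and 2878 in siYT_DMSO. It had 1469, 1439.6 and 1257 CPM in siC_XMU and 2239.5, 2269 and 2856 in siC_DMSO. The siC_XMU libraries were the 3 lowest of the 12. KRT7 rose after the knockdown in XMU-MP1 (log2 1.34 ± 0.30, 2.53-fold, adjusted p = 0.00483) and its value in DMSO was 0.22 ± 0.30 (adjusted p = 0.626). The call in XMU-MP1 was lost in limma-trend on log2(FPKM + 1), where the log2 difference was 0.70 (adjusted p = 0.224).

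KRT8, the type II chain of the main pair of simple epithelia, had 738, 583 and 289 CPM in siYT_XMU and 476, 354 and 438 in siYT_DMSO. It had 2330.0, 2399 and 1762 CPM in siC_XMU and 1972, 1905 and 1766 in siC_DMSO. Its partner KRT18 had 496, 519 and 248 CPM in siYT_XMU and 463, 447 and 511 in siYT_DMSO. KRT18 had 1805, 1581 and 1258 CPM in siC_XMU and 1857, 1730.3 and 1656 in siC_DMSO. For both genes the knockdown libraries were all far below the control siRNA libraries, and library c of siYT_XMU was the lowest of all. KRT8 fell 4.03-fold in XMU-MP1 (log2 -2.01 ± 0.30, adjusted p = 0.000303) and 4.45-fold in DMSO (log2 -2.15 ± 0.30, adjusted p = 0.000197). KRT18 fell 3.68-fold in XMU-MP1 (log2 -1.88 ± 0.26, adjusted p = 0.000201) and 3.69-fold in DMSO (log2 -1.88 ± 0.26, adjusted p = 0.000196). These calls held in every alternative fit and without any single library, and limma-trend on log2(FPKM + 1) gave -2.62 for KRT8 in XMU-MP1.

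Both genes have many processed pseudogenes, which could take reads from them. The 50 KRT8 pseudogenes in the table together had 1.5 to 8.23% of the KRT8 counts in siYT_XMU and 1.97 to 3.07% in siYT_DMSO, against 0.994 to 1.15% in siC_XMU and 0.987 to 1.4% in siC_DMSO. The 71 KRT18 pseudogenes had 0.492 to 4.93% and 0.489 to 0.792% of the KRT18 counts in siYT_XMU and siYT_DMSO, against 0.233 to 0.34% and 0.158 to 0.264% in siC_XMU and siC_DMSO. The pseudogene share was thus at most 8.23% of KRT8 and 4.93% of KRT18 in any library, both in siYT_XMU.

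KRT19, the smallest keratin and a type I chain of luminal cells, was close to the lower end of detection, with 3.93, 6.17 and 3.11 CPM in siYT_XMU and 4.63, 2.01 and 3.04 in siYT_DMSO. It had 0.982, 0.331 and 0.228 CPM in siC_XMU and 1.07, 0.599 and 0.152 in siC_DMSO. These levels stand for 15 to 319 counts per knockdown library and 11 to 70 counts per control library. The groups did not overlap, and KRT19 rose 8.67-fold in XMU-MP1 (log2 3.12 ± 0.77, adjusted p = 0.00803) and 5.29-fold in DMSO (log2 2.40 ± 0.75, adjusted p = 0.0274). In DMSO its adjusted p lay above the threshold when library b or c of siC_DMSO or library a or c of siYT_DMSO was left out (0.0566 to 0.087). Without library a of the control group the log2 value was 3.98 in XMU-MP1 and 3.08 in DMSO, and limma-trend on log2(FPKM + 1), which compresses low levels, gave 1.27 and 1.12, called in each case.

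KRT81 is a hair-type keratin, yet it stood among the high keratins of these cells. It had 2459.7, 1719.9 and 473 CPM in siYT_XMU and 1584, 588 and 408 in siYT_DMSO. It had 2232, 1265 and 585 CPM in siC_XMU and 2532, 1178 and 910.0 in siC_DMSO. The groups overlapped, and in each of them library a was the highest and library c the lowest. The log2 fold change of the knockdown was 0.19 ± 0.67 in XMU-MP1 (adjusted p = 0.854) and -0.84 ± 0.68 in DMSO (adjusted p = 0.391), where it was -1.63 without library a of siYT_DMSO (adjusted p = 0.128). The KRT81 transcript shares 30.3% of its 100-base stretches with other genes, 29.4% with KRT86, so the split between these paralogs is uncertain. KRT86 had 1.25 to 1.7% of the counts of KRT81 in every library.

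**Figure D2:**
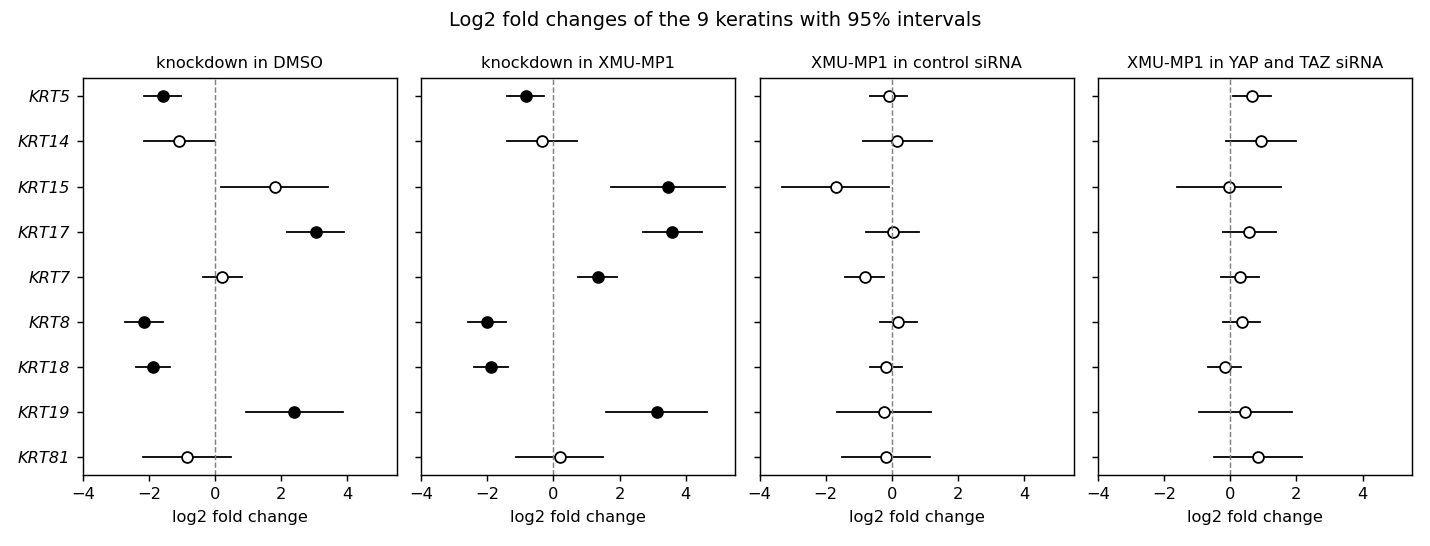
Log2 fold change of each of the 9 keratins in 4 comparisons, from edgeR, with an approximate 95% interval from SE as a line. The lines are narrower than the test implies, and some leave out 0 at an unadjusted p above 0.05. Filled points are called at an adjusted p under 0.05. The 5 filled points of the knockdown in DMSO and the 7 in XMU-MP1 lie on both sides of 0, and both panels of XMU-MP1 hold open points alone.

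XMU-MP1 moved none of the 9 keratins past the threshold in the main edgeR fit, which had no block for the library letter. After the knockdown 0 of the 9 were called, against 12.1% of all genes tested, and 1 had an unadjusted p under 0.05, while DESeq2 and limma-trend also called 0. That gene was KRT5, with a log2 fold change of 0.65 ± 0.29 (adjusted p = 0.167), which reached 1.06 (adjusted p = 0.0265) without library a of siYT_DMSO. With control siRNA 0 of the 9 were called, against 9.26% of all genes tested, and again 1 had an unadjusted p under 0.05, while limma-trend called 0. That gene was KRT7, with -0.82 ± 0.30 (1.77-fold lower, adjusted p = 0.116), and the siC_XMU and siC_DMSO libraries of KRT7 did not overlap, as for 40.7% of all genes tested. KRT7 was the 1 gene that DESeq2 called in this comparison (adjusted p = 0.0227), and edgeR called it without library b or c of siYT_XMU (adjusted p = 0.0297 and 0.0203).

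The other effects of XMU-MP1 were small or imprecise. KRT8 and KRT18 gave 0.35 ± 0.29 and -0.17 ± 0.25 after the knockdown, and 0.20 ± 0.29 and -0.18 ± 0.25 with control siRNA. KRT8 after the knockdown reached 0.64 (adjusted p = 0.0396) without library c of siYT_XMU. The approximate 95% intervals of KRT8 ran from -0.21 to 0.90 and from -0.36 to 0.76. They are narrower than the test implies, so no limit on the size of a change was drawn from them. KRT17 gave 0.57 ± 0.41 after the knockdown and 0.03 ± 0.41 with control siRNA. KRT15 was the least precise, at -0.03 ± 0.80 after the knockdown and -1.70 ± 0.82 with control siRNA (adjusted p = 0.242). With the library letter as a block, edgeR called KRT15 lower with control siRNA (value below).

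The interaction, which tests whether the XMU-MP1 effect differed between the siRNA arms, called 0 of the 9 in edgeR, against 2.59% of all genes tested, and 1 had an unadjusted p under 0.05. That gene was again KRT7, with 1.12 ± 0.42 (adjusted p = 0.18). DESeq2 called it (1.17, adjusted p = 0.0367), and so did edgeR without library c of siYT_XMU (1.40, adjusted p = 0.0277). Its XMU-MP1 effect was 0.30 ± 0.30 after the knockdown and -0.82 ± 0.30 with control siRNA. Across the 9 the interaction lay between 0.01 (KRT18) and 1.66 (KRT15). An antisense gene, KRT7-AS, lies within the span of KRT7 on the opposite strand, and the libraries are stranded per the labels, but whether counting used the strand is not given in the sources used here. KRT7-AS had 0.0742 to 0.116% of the KRT7 counts in siYT_XMU and 0.771 to 0.816% in siYT_DMSO, against 0.116 to 0.256% in siC_XMU and 0.943 to 1.15% in siC_DMSO.

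Levels of different keratins were set beside each other as FPKM, a unit scaled to transcript length and depth. It carries no TMM adjustment, whose factor was 0.5861 for library c of siYT_XMU and 0.8508 to 1.1672 elsewhere. With control siRNA and DMSO KRT5 was the highest, at 2294 ± 200.0 FPKM (SD, n = 3), and KRT18 the second at 1312 ± 83.1. KRT7 (939.7 ± 132), KRT8 (931 ± 55.2), KRT81 (889 ± 508) and KRT17 (506 ± 89.5) followed with overlapping neighbours. KRT15 (158 ± 77.4), KRT14 (33.3 ± 11.5) and KRT19 (0.479 ± 0.369) stood below these, each apart from its neighbours. After the knockdown with DMSO the order opened with KRT17 at 3568 ± 1762 FPKM, apart from KRT7 at 958 ± 38.0. From KRT7 through KRT5 (657 ± 242), KRT15 (467 ± 352) and KRT81 (423 ± 284) to KRT18 (312 ± 29.1), neighbours overlapped. KRT8 (183 ± 17.7), KRT14 (13.3 ± 8.74) and KRT19 (2.21 ± 0.759) closed it, each apart from the gene before.

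With XMU-MP1 the highest keratin in each siRNA arm was the same gene as with DMSO. In siYT_XMU KRT17 averaged 4411 ± 2394 FPKM, ahead of KRT7 at 950.4 ± 572 and KRT5 at 827 ± 329. In siC_XMU KRT5 averaged 2035 ± 269.8 FPKM, ahead of KRT18 at 1096 ± 159 and KRT8 at 1010.5 ± 134, while KRT7 was at 503 ± 25.0.

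The 9 keratins together were a smaller share of all keratin FPKM in the knockdown. Their share was 65.0% ± 2.95 in siYT_XMU and 68.1% ± 4.28 in siYT_DMSO, against 90.1% ± 2.05 in siC_XMU and 90.6% ± 1.95 in siC_DMSO (SD, n = 3 each), and knockdown and control libraries did not overlap. The remainder was mostly KRT6A, KRT6B, KRT6C and KRT16, keratins of activated and suprabasal keratinocytes, with 33.7% ± 3.65 and 30.3% ± 4.97 in siYT_XMU and siYT_DMSO, against 9.72% ± 2.07 and 8.82% ± 1.88 in siC_XMU and siC_DMSO. KRT17 alone made up 37.3% ± 0.994 and 35.8% ± 1.7 of keratin FPKM in siYT_XMU and siYT_DMSO, against 7.24% ± 0.988 and 6.46% ± 0.826 in siC_XMU and siC_DMSO. KRT5 made up 7.72% ± 2.11 and 6.85% ± 0.546 in siYT_XMU and siYT_DMSO, against 31.1% ± 2.51 and 29.5% ± 3.4 in siC_XMU and siC_DMSO. In the knockdown groups both shares varied less between libraries, relative to their means, than the FPKM of the same genes. Of the simple pair, KRT8 was at 1.58% ± 0.151 and 2.06% ± 0.669 in siYT_XMU and siYT_DMSO, against 15.4% ± 0.842 and 11.9% ± 0.0355 in siC_XMU and siC_DMSO, and KRT18 was at 1.92% ± 0.242 and 3.63% ± 1.53 in siYT_XMU and siYT_DMSO, against 16.7% ± 0.96 and 16.8% ± 0.309 in siC_XMU and siC_DMSO. The sum of all keratin FPKM was 4999 to 17037 in siYT_XMU and 6488 to 14920.4 in siYT_DMSO, against 5319.9 to 7311 in siC_XMU and 7289.6 to 8252 in siC_DMSO, and these ranges overlapped. In siYT_XMU the 4999 belonged to library c, whose FPKM are low for want of the TMM adjustment, and libraries a and b had 17037 and 13085.

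The summed ratio of basal over simple keratins was higher after the knockdown, and its size depended on which genes it held. The log2 ratio of KRT5, KRT14, KRT15 and KRT17 over KRT7, KRT8, KRT18 and KRT19, in summed FPKM, was 2.42, 1.62 and 2.20 in siYT_XMU and 2.34, 1.12 and 1.29 in siYT_DMSO. It was -0.04, 0.11 and -0.11 in siC_XMU and -0.15, 0.09 and -0.22 in siC_DMSO. All knockdown libraries lay above all control libraries. The knockdown difference was 2.09 in XMU-MP1 and 1.68 in DMSO, each with an exact two-sided permutation p of 0.1, the smallest that 3 against 3 libraries can give, so this test could not pass 0.05. With KRT5 and KRT14 over KRT8 and KRT18 alone the differences were 1.18 and 0.33. XMU-MP1 against DMSO gave a difference of 0.49 after the knockdown (exact permutation p = 0.3) and 0.08 with control siRNA (exact permutation p = 0.5).

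Within the pairs, KRT5 exceeded KRT14 in every library, by a log2 FPKM ratio between 5.01 and 6.60, and no comparison separated the groups (exact permutation p 0.3 to 0.8). For KRT8 over KRT18 the log2 FPKM ratio averaged -0.28 ± 0.22 in siYT_XMU and -0.77 ± 0.19 in siYT_DMSO, against -0.12 ± 0.12 in siC_XMU and -0.50 ± 0.03 in siC_DMSO. The ratio was higher with XMU-MP1 in both siRNA arms without overlap of libraries, by 0.49 after the knockdown and by 0.38 with control siRNA, and lower after the knockdown in DMSO by 0.28 (exact permutation p = 0.1 in each). In XMU-MP1 the knockdown difference was -0.16 (exact permutation p = 0.3). The ratio of KRT17 over KRT5, which was chosen after its values were seen and was not tested, was 5.62, 6.00 and 3.60 in siYT_XMU and 5.97, 4.65 and 5.18 in siYT_DMSO, against 0.278, 0.242 and 0.185 in siC_XMU and 0.265, 0.22 and 0.179 in siC_DMSO.

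**Figure D3:**
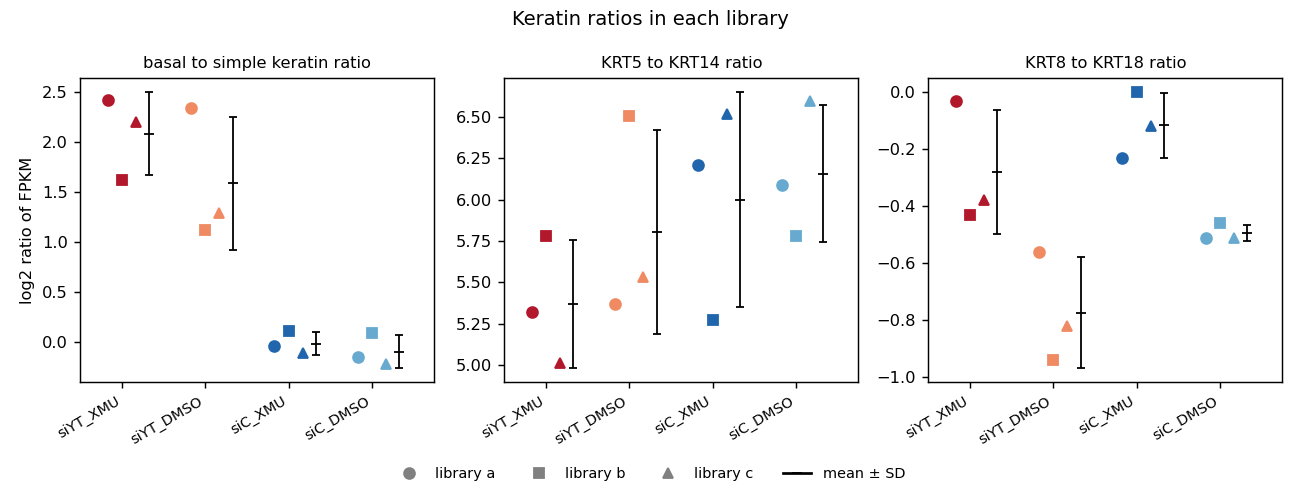
Log2 ratio of summed FPKM in each library for the basal over the simple keratins, for KRT5 over KRT14 and for KRT8 over KRT18, with the mean ± SD of 3 beside the points. The first ratio lies between 1.12 and 2.42 with YAP and TAZ siRNA and between -0.22 and 0.11 with control siRNA.

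The other keratins that passed the test after the knockdown in edgeR rose. Of 46 further keratin genes 18 passed the filter. In XMU-MP1 13 rose (72.2%) and 0 fell, against 17.7% higher and 18.6% lower of all genes tested. The median log2 fold change was 5.65, beside 0.04 over all genes tested. In DMSO 12 rose (66.7%) and 0 fell, against 16.1% and 16.0%, with a median of 3.51 beside 0.02. The filter took in all 12 libraries, so a keratin nearly absent with control siRNA could pass through its knockdown libraries alone, with no room to fall. These counts and medians therefore lean towards a rise. The count in DMSO was 7 without library a or without library b of siC_DMSO. KRT16 and KRT6B, both keratins of wounded and suprabasal epidermis, rose by 6.34 ± 0.60 and 5.74 ± 0.49 on the log2 scale in XMU-MP1 and by 6.57 ± 0.61 and 5.22 ± 0.48 in DMSO (adjusted p at most 1.72e-05). Without library a of siYT_DMSO KRT6B rose by 4.58 in DMSO, and limma-trend on log2(FPKM + 1) gave 5.75, 5.15 and 2.91 for KRT16, KRT6B and KRT6C in XMU-MP1. KRT6C rose by 3.52 ± 0.37 in XMU-MP1 and 2.77 ± 0.35 in DMSO (adjusted p = 3.08e-05 and 0.000114). KRT10, the type I chain of the suprabasal epidermis, rose by 3.73 ± 0.76 in XMU-MP1 (adjusted p = 0.00267), by 2.84 without library b of siYT_XMU (adjusted p = 0.0103) and by 2.45 in limma-trend on log2(FPKM + 1) (adjusted p = 0.0428). KRT79 was nearly absent with control siRNA, at no more than 4 counts per library, and averaged 38.6 ± 29.2 CPM in siYT_XMU and 23.1 ± 13.3 in siYT_DMSO. KRT78 averaged 16.2 ± 1.6 CPM in siYT_DMSO and 0.296 ± 0.162 in siC_DMSO.

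KRT80, a type II keratin of many epithelia, was the 1 further keratin called in the interaction. It averaged 355 ± 148 CPM in siYT_XMU and 356 ± 109 in siYT_DMSO, against 10.1 ± 1.24 in siC_XMU and 131 ± 19.9 in siC_DMSO. XMU-MP1 lowered it with control siRNA (log2 -3.70 ± 0.31, adjusted p = 0.000201), and the interaction was 3.70 ± 0.41 (adjusted p = 0.00389), or 2.87 in limma-trend on log2(FPKM + 1) (adjusted p = 0.0126). XMU-MP1 with control siRNA called 2 further keratins lower (11.1%) and 0 higher (median -0.10), against 5.26% lower and 4.0% higher of all genes tested. The count lower was 1 without any single library of siC_DMSO or siYT_DMSO or without library b or c of siC_XMU. After the knockdown XMU-MP1 called 0 further keratins in edgeR, DESeq2 and limma-trend (median 0.65), against 12.1% of all genes tested in edgeR. In edgeR 1 had an unadjusted p under 0.05, and 2 were called higher without library a of siYT_DMSO. KRT7 and KRT80 were thus both at their lowest in siC_XMU, KRT7 without a call.

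Of 28 proteins that bind, anchor or modify keratin filaments, 8 rose and 5 fell after the knockdown in XMU-MP1 (median 0.37), and 10 rose and 5 fell in DMSO (median 0.36). The share that rose was 28.6% in XMU-MP1 and 35.7% in DMSO, against 17.7% and 16.1% of all genes tested. The share that fell was 17.9% in both, near the 18.6% and 16.0% of all genes tested. EVPL and PPL, plakins that tie keratin filaments to the cell periphery, rose by 3.22 ± 0.20 and 3.30 ± 0.33 on the log2 scale in XMU-MP1 and by 2.15 ± 0.20 and 2.69 ± 0.32 in DMSO. DSP, the desmosomal plakin that anchors keratin filaments, rose by 1.84 ± 0.18 and 1.71 ± 0.18, and YWHAH, a 14-3-3 protein, fell by 1.41 and 1.37 on the log2 scale (SE 0.17 in both arms), in XMU-MP1 and in DMSO. Adjusted p was at most 9.95e-05 for each of these values. On log2(FPKM + 1) limma-trend gave 2.35 for EVPL and 2.67 for PPL in XMU-MP1. XMU-MP1 called 0 of these 28 higher and 4 lower after the knockdown (median -0.05), and 1 higher and 2 lower with control siRNA (median -0.25). The share called lower was 14.3% after the knockdown and 7.14% with control siRNA, against 7.92% and 5.26% of all genes tested. The share called higher was 0.0% and 3.57%, against 4.19% and 4.0%, so the shares with control siRNA were near the background. With control siRNA the lower count was 5 without library c of siYT_XMU and 1 without library b of siC_XMU, and after the knockdown it was 2 without library c of siYT_DMSO. The higher count with control siRNA was 0 without library a of siC_DMSO or b of siC_XMU and 2 without library c of siYT_DMSO.

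Of 33 regulators of keratin genes 32 passed the filter. After the knockdown 13 rose and 9 fell in XMU-MP1 (median 0.39), and 15 rose and 4 fell in DMSO (median 0.75). The share that rose was 40.6% in XMU-MP1 and 46.9% in DMSO, against 17.7% and 16.1% of all genes tested. The share that fell was 28.1% and 12.5%, against 18.6% and 16.0%, so in DMSO it was below the background. XMU-MP1 called 0 higher and 16 lower after the knockdown (median -1.27), and 1 higher and 12 lower with control siRNA (median -0.70), beside medians of 0.02 and -0.02 over all genes tested. Of all genes tested, 4.19% were called higher and 7.92% lower after the knockdown, against 4.0% higher and 5.26% lower with control siRNA, so the share of these genes called lower was above the background in both. With control siRNA the lower count was 6 or 7 without any single library of siC_DMSO or without library b or c of siC_XMU, and the 1 call higher was lost without any of 9 single libraries. GRHL3, a grainyhead factor of epidermal differentiation, averaged 9.63 ± 1.71 CPM in siYT_XMU and 248 ± 71.8 in siYT_DMSO, against 1.56 ± 0.63 in siC_XMU and 21.3 ± 7.02 in siC_DMSO. TEAD4, a DNA-binding partner of YAP and TAZ, fell by 2.61 on the log2 scale in XMU-MP1 and by 3.25 in DMSO (SE 0.33 in both arms, adjusted p = 0.000108 and 2.53e-05). TP63, a regulator of KRT5 and KRT14, averaged 6.42 ± 5.21 CPM in siYT_XMU and 18.1 ± 6.71 in siYT_DMSO, against 3.14 ± 0.979 in siC_XMU and 26.5 ± 3.56 in siC_DMSO. XMU-MP1 lowered TP63 with control siRNA (log2 -3.08 ± 0.51, adjusted p = 0.00415, and -1.82 in limma-trend on log2(FPKM + 1)), where KRT5 gave -0.09 ± 0.29 and KRT14 0.17 ± 0.54. With YAP and TAZ siRNA the XMU-MP1 effect on TP63 was -1.58 ± 0.50 (adjusted p = 0.0615). DESeq2 called it (-1.47, adjusted p = 0.0253), as did limma-trend and edgeR without library c of siYT_XMU (-2.41, adjusted p = 0.0033). That library had 12.4 CPM of TP63, against 3.58 and 3.25 in libraries a and b. The knockdown in DMSO gave -0.55 ± 0.47 for TP63 (adjusted p = 0.425), where KRT5 fell.

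Across the 12 libraries, KRT8 and KRT18 varied together (Pearson r = 0.97 of log2 CPM), and so did KRT17 and KRT19 (r = 0.97) and KRT5 and KRT8 (r = 0.9). KRT17 and KRT18 ran in opposite directions (r = -0.87), while KRT81 followed none of the others closely (r from 0.04 to 0.54). These values describe 12 libraries in 4 groups that share the siRNA and drug effects. Among 6810 genes with a mean FPKM of at least 5, the gene whose pattern was most like that of KRT17 was another keratin, KRT6B (r = 0.991). For KRT18 it was PRPF19 (r = 0.991), for KRT8 PPM1G (r = 0.99), for KRT5 CENPW (r = 0.972) and for KRT19 MAPK3 (r = 0.971). For KRT7 it was NADSYN1 (r = 0.962), for KRT15 DBNDD1 (r = 0.943), for KRT81 CRYBB2P1 (r = 0.932) and for KRT14 FPGS (r = 0.843). KRT15 and KRT81 were the 2 of the 9 whose libraries kept the same order in all 4 groups, as 1.68% of all genes tested did.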

How the data were processed

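Per the labels' protocols, polyadenylated RNA of MCF10A was made into stranded paired-end libraries. Per the submitters' processing notes the build was GRCh38.p13 and the tools included HISAT2 and StringTie with cutadapt, FastQC and edgeR, and no version or setting is given. The authors deposited whole-number counts per gene, unscaled per the file headers, and FPKM, both for 46931 genes in 12 libraries, and every FPKM at a count of 0 is listed as 0.0001. From the counts, edgeR 4.0.16 in R 4.3.3 kept 18143 genes (filterByExpr), scaled libraries by TMM and fitted a quasi-likelihood model with 4 group means (8 residual degrees of freedom). Calls are Benjamini-Hochberg adjusted p under 0.05 over all genes tested, two-sided. SE is the log2 fold change (prior count 0.125) divided by the square root of F. Ratios of FPKM were compared by exact permutation. A floor of 3 counts is 0.0382 to 0.622 CPM, for counting error only. Shared 100-base stretches were counted in GENCODE 29 transcripts. The script was tested on simulated data.

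The members and lists were chosen with earlier results of these data known. Named are the 9 members, up to 6 called further keratins and up to 4 called genes of each other list with the smallest adjusted p (mean FPKM 5 or more where higher), YAP1, WWTR1, TP63, and the gene most alike by Pearson r of log2(CPM + 1). KRT6A, KRT7-AS and KRT86 were chosen after their values were seen. Alternatives were no filter, RLE size factors, a replicate block, the compared groups only, DESeq2 1.42.0, limma-trend (limma 3.58.1) on log2(FPKM + 1) and log2(FPKM + 0.1), and each library left out.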

Additional observations from a re-analysis of the deposited data

Results flagged for a closer look

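KRT80 and 4 regulators of keratin genes differed in their XMU-MP1 effect between the siRNA arms, by the interaction term of edgeR adjusted over all genes tested. For KRT80 the effect after the knockdown minus that with control siRNA was 3.70 ± 0.41 on the log2 scale (SE, adjusted p = 0.00389). For GRHL1 it was -2.29 ± 0.36 (adjusted p = 0.0117), with 77.4 ± 22.6 CPM in siYT_XMU and 205 ± 14.1 in siYT_DMSO, against 23.3 ± 1.93 in siC_XMU and 12.6 ± 4.11 in siC_DMSO (SD, n = 3 each). For CEBPB it was -1.74 ± 0.33 (adjusted p = 0.0239), with 75.1 ± 24.9 CPM in siYT_XMU and 363 ± 50.6 in siYT_DMSO, against 71.1 ± 8.17 in siC_XMU and 103 ± 15.1 in siC_DMSO. For TFAP2A it was -1.40 ± 0.23 (adjusted p = 0.0137), and for GATA3 -1.55 ± 0.35 (adjusted p = 0.0395). The count of 4 regulators was 1 or 2 without any single library of siC_DMSO, without library b or c of siC_XMU or without library c of siYT_DMSO. None of the 9 basal and simple keratins passed this test in edgeR.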

How the results depend on the processing

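Calls were 5 in DMSO and 7 in XMU-MP1 for the knockdown, and leaving out each library in turn gave 4 to 5 and 6 to 7. For XMU-MP1 the count of 0 became 1 with control siRNA under the replicate block, in the compared groups alone and in DESeq2, and leaving out single libraries gave 0 to 1 there, after the knockdown and for the interaction, where DESeq2 also called 1. Under the replicate block KRT15 was called in the knockdown in DMSO (1.68, adjusted p = 0.00916) and in XMU-MP1 with control siRNA (-2.06, adjusted p = 0.0131), as was KRT81 in the knockdown in DMSO (-0.95, adjusted p = 0.0195). The replicate block changed no other call of the 9. It also called KRT86 lower in the knockdown in DMSO (-1.18, adjusted p = 0.0102) and ended the KRT6A call (1.09, adjusted p = 0.0857). The letters were not taken as pairs, since 9 of 18 same-letter correlations of residuals were over 0.1 (0.018 to 0.28), although all 12 libraries correlated best with their own letter, a hint from the data and not from the design. For the basal to simple ratio, KRT5 and KRT14 over KRT8 and KRT18 gave 0.33 for the knockdown in DMSO, 1.18 in XMU-MP1 and -0.08 for XMU-MP1 with control siRNA, and TMM CPM gave 1.48 for the knockdown in XMU-MP1. The cause was not tested.

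Sign changes touched uncalled values alone. On log2(FPKM + 1), with the value on log2(FPKM + 0.1) second where it differs, the knockdown in XMU-MP1 gave -0.43 for KRT81, -0.16 and -0.28 for KRT7-AS and -0.24 and -0.42 for KRT86. XMU-MP1 with control siRNA gave -0.02 for KRT14 and -0.09 for KRT17 there, and after the knockdown -0.23 for KRT7 and -0.16 for KRT8. The interaction gave -0.27 for KRT8, -0.38 and -0.39 for KRT18 and, on log2(FPKM + 1), 0.02 for YAP1. The replicate block gave -0.02 for KRT17 with control siRNA, 0.03 for KRT15 after the knockdown and -0.03 for the KRT18 interaction, which was -0.01 without the filter. Leaving out single libraries spanned 0 for the knockdown in XMU-MP1 of KRT14 (-0.66 to 0.25), KRT81 (-0.31 to 0.72), KRT7-AS (-0.08 to 0.50) and KRT86 (-0.22 to 0.67). For XMU-MP1 with control siRNA it did so for KRT5 (-0.19 to 0.03), KRT14 (-0.43 to 0.48), KRT17 (-0.13 to 0.26), KRT19 (-1.11 to 0.44), KRT81 (-0.73 to 0.38), KRT6A (-0.20 to 0.04) and KRT86 (-0.82 to 0.28). After the knockdown it did so for KRT15 (-0.41 to 0.87), KRT7 (-0.16 to 0.58) and KRT18 (-0.35 to 0.10), and in the interaction for KRT8 (-0.16 to 0.44) and KRT18 (-0.18 to 0.27). With 3 libraries per group and an SE of 0.67 to 0.88 for KRT15, KRT19 and KRT81 between groups, changes of these genes are poorly bounded.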

Other observations

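KRT7-AS, the antisense gene inside the span of KRT7, moved with XMU-MP1 in both siRNA arms. It had 2.38, 3.98 and 2.28 CPM in siYT_XMU and 24.1, 20.8 and 23.5 in siYT_DMSO, against 2.49, 1.67 and 3.22 in siC_XMU and 25.6, 21.4 and 27.9 in siC_DMSO. Every XMU-MP1 library was far below every DMSO library. It was chosen after its values were seen, and edgeR gave a log2 fold change of -2.95 ± 0.31 after the knockdown (adjusted p = 0.000214) and -3.34 ± 0.31 with control siRNA (adjusted p = 0.000221), with an interaction of 0.40 ± 0.41 (adjusted p = 0.677). KRT7 on the other strand gave 0.30 ± 0.30 and -0.82 ± 0.30 in the same comparisons. KRT6A, the most abundant of the further keratins and also chosen after its values were seen, averaged 5299.9 ± 2134 CPM in siYT_XMU and 3148 ± 2300.4 in siYT_DMSO, against 1255 ± 196 in siC_XMU and 1306 ± 243 in siC_DMSO. It rose by 2.08 ± 0.46 in XMU-MP1 (adjusted p = 0.00407) and by 1.27 ± 0.45 in DMSO (adjusted p = 0.0469, with overlapping libraries). The call in DMSO was lost in the compared groups alone (adjusted p = 0.0743), in limma-trend (0.85, adjusted p = 0.247 on log2(FPKM + 1)) and when any of 8 single libraries was left out. Over all 12 libraries left out in turn the value was between 0.49, without library a of siYT_DMSO, and 1.60 (adjusted p 0.016 to 0.323).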
